A study of Mus musculus with 2 samples.

Results

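Of the 5303 cell barcodes in the library labelled IRF8KO, 1814 had an excess of detected genes from a set with Clec12a, Mrc1 and Igf1. The excess was counted over an opposing set led by Lgals1, Cst7 and Cd72, and no single gene was required. The cells were chosen by a count of detected genes. A barcode was eligible with 2000 to 6000 unique molecular identifiers (UMIs, the tags that count each captured transcript a single time), at most 10% mitochondrial UMIs and under 2% of UMIs in the neutrophil genes Camp, Ngp, S100a8, S100a9, Lcn2 and Ltf. The score of a barcode was the number detected of 8 genes (list B, which is Cox6a2, Clec12a, G0s2, Cp, Igf1, Reps2, Mrc1 and Gpr65) minus the number detected of 8 others (list A, which is Fxyd5, Cd72, Runx3, Lgals1, Scimp, Lilrb4a, Cst7 and Pilrb2). Barcodes with a score of 2 or more are called members below, and those with a score of -2 or less are called cells of the Lgals1, Cst7, Cd72 state. Members were 45.4% of the 3996 eligible barcodes (exact binomial interval 43.8 to 47.0) and 34.2% of all barcodes of their library. The opposing state held 569 barcodes, or 14.2% of those eligible, and 1613 barcodes lay between. In the wild-type (WT) library, 6 of 2356 eligible barcodes reached the same score, or 0.25% (0.09 to 0.55).

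Microglia are the resident macrophages of the brain parenchyma, and their homeostatic programme includes the purinergic receptor P2ry12, the transcription factor Sall1 and secreted proteins such as Sparc. Macrophages of the meninges and perivascular spaces share much of the macrophage machinery with microglia but are known for Mrc1, the mannose receptor CD206, and for Pf4, Ms4a7 and Lyve1. IRF8 is a transcription factor of the myeloid lineage that binds DNA with partners such as PU.1, at composite sites and at the elements through which interferon-stimulated genes are switched on.

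The study profiled microglia isolated without enzymes, sorted by flow cytometry and loaded on a droplet platform. Both libraries came from female C57BL/6 mice aged 3 months with no treatment, each from a pool of 3 mice, so each group was 1 library and no difference has a replicate check. The sample title reads IRF8KO for one library and WT for the other, but the genotype entry reads WT for both, and the labels do not name the allele; the cells are therefore called those of the library labelled IRF8KO. Irf8 transcripts did not check the label: they stood at 647 CPM (UMI counts scaled to the same total in every class) in members and 720 CPM in WT cells (log2 ratio -0.15, -0.22 to -0.09), and UMIs counted outside a deleted part would not show a deletion.

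The libraries held 18706147 UMIs in 3504 WT barcodes and 19998075 UMIs in the other. Members had a median of 2782 UMIs and 1342 genes, against 3046.5 UMIs and 1618 genes in eligible WT barcodes and 3336 UMIs and 1492 genes in the opposing state. Median shares of mitochondrial UMIs were 3.47% in members, 2.08% in WT and 4.29% in the opposing state, and those of ribosomal protein genes were 12.46%, 6.56% and 16.43%. The libraries shared 5 barcodes, none of them a member. Levels below are CPM pooled over the cells of a class (5483660 UMIs in members, 7706157 in WT, 1988006 in the opposing state), with exact 95% intervals that cover counting error only. No p-value is given, because cells of 1 library are not replicates.

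The members are a range of a score, and whether they form a separate type was not tested. Scores in the library labelled IRF8KO ran from -6 to 7 with a single peak at 2, where 702 barcodes lay. Just outside the threshold, at a score of 1, lay another 650. In the plot of scores by library, WT barcodes pile up at 0 while the other library spreads to both sides without a gap at the threshold.

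**Figure D1:**
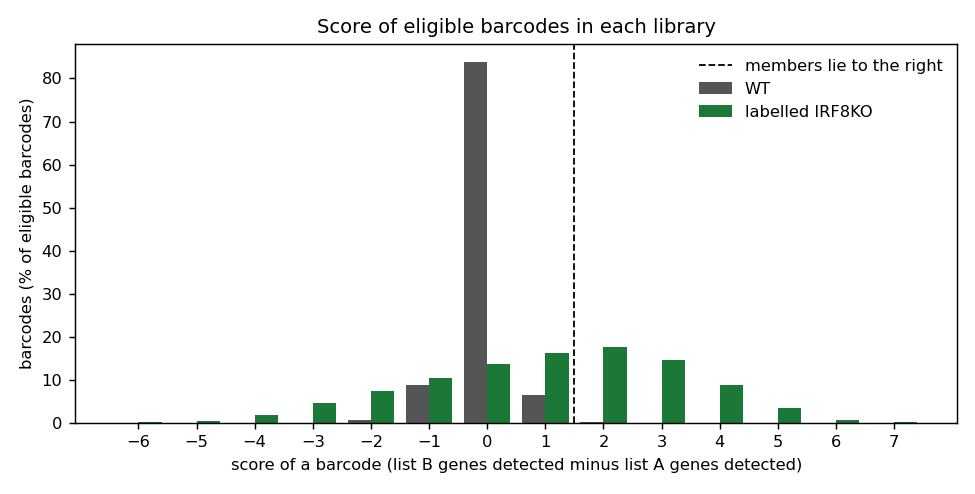
Share of eligible barcodes (% of each library's eligible barcodes, y axis) at each score (x axis), for WT (grey) and the library labelled IRF8KO (green). The dashed line marks the threshold, with 702 barcodes at a score of 2 just inside it and 650 at a score of 1 just outside.

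The genes of the rule are given as a description, since they chose the cells. Mrc1 stood at 658 CPM in members, 343 CPM between and 212 CPM in the opposing state, and Cp, the copper-carrying ferroxidase ceruloplasmin, at 737, 436 and 271 CPM. Igf1, the insulin-like growth factor, had 658 UMIs in members against 6 in WT, and only 27.1% of members had an Igf1 UMI. Clec12a, an inhibitory C-type lectin receptor of myeloid cells, had 1732 UMIs in members, found in 59.5% of them, and none in WT. Cox6a2, the muscle form of a cytochrome c oxidase subunit, G0s2, an inhibitor of the lipase that opens fat droplets, Reps2, an endocytosis adaptor, and Gpr65, an acid-sensing receptor, stood at 107, 85.3, 74.2 and 295 CPM. At a score of 2 against a score of 1, Mrc1 was at 518 and 407 CPM, Clec12a at 230 and 173 CPM, Igf1 at 71.7 and 62.5 CPM and Gpr65 at 234 and 216 CPM. Cells on both sides of the threshold held these transcripts. A member rarely held the whole list: 259 members had 2 of the 8 genes detected, 630 had 3, 549 had 4, 305 had 5, and 71 had 6 or more, while 996 had no list A gene.

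Detection of each list B gene was compared with detection of the others. Both lists were chosen with earlier results of these data known, so these shares are a description and not a test of the lists. After each eligible barcode was thinned at random to 2000 UMIs, Gpr65 was detected in 36.8% of barcodes with 3 or more of the other 7 genes and in 32.9% of those with at most 1. The same shares were 8.62% and 7.31% for G0s2, 11.6% and 9.77% for Cox6a2, 15.6% and 11.2% for Igf1, 59.1% and 48.5% for Mrc1, 39.4% and 25.8% for Clec12a, 67.9% and 53.5% for Cp, and 12.04% and 5.64% for Reps2, the largest ratio of the list. For list A the limits differed, so the lists are not compared: Fxyd5 was in 47.0% of barcodes with 2 or more of the other 7 and 16.2% of those with none, and Cst7 in 26.9% and 12.9%. The mean number of list B genes was 2.48 in barcodes with no list A gene and 1.65 in those with 3 or more. Clec12a was also detected in 60.8% of the 97 neutrophil-like barcodes after thinning, above the 45.6% of members, whereas Igf1, Reps2 and Cox6a2 were in none of them.

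Against the opposing state of the same library, members held more of several microglia genes outside the rule and less of a set of activation, interferon and cytoskeletal genes. Of 8371 genes with at least 10 CPM in 1 of the classes, 123 (1.47%) were higher in members by 2-fold or more and 148 (1.77%) lower. With a score of at least 3 on both sides the counts were 301 higher and 225 lower, a higher share of 57.2% against 45.4%. The median log2 ratio of all genes was 0.07, and the middle 90% ran from -0.57 to 0.64. Members and opposing cells also differed in depth and in ribosomal share, as given above, and the count of 271 genes past 2-fold moved with how they were treated. It was 265 with opposing cells weighted to the members' UMIs, 348 (140 higher and 208 lower) with totals without mitochondrial genes, ribosomal protein genes and Apoe, and 411 (226 higher and 185 lower) with thinning to 2000 UMIs before the rule.

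Among genes with at least 50 CPM in 1 of the classes, Crybb1 had the largest excess in members; Adgrg1 and Cd38, below that level, had larger ratios and are given with their lists. This gene of a lens crystallin, also transcribed in microglia, lies on chromosome 5 (chr5:112255815-112269585, + strand, GRCm38). It stood at 317 CPM in members, 108 CPM in the cells between, 31.7 CPM in the opposing state and 455 CPM in WT. Members exceeded the opposing state by a log2 ratio of 3.32 (2.96 to 3.71), and WT exceeded members by a smaller one, with members over WT at -0.52 (-0.60 to -0.43). After thinning, Crybb1 was detected in 39.5% of members, 15.9% of the cells between, 4.75% of the opposing state and 53.9% of WT barcodes. In neutrophil-like barcodes, used as a guide to background from free RNA (median 7140 UMIs before thinning), the share was 1.03%. Before thinning, 15 of these 97 barcodes held 3 or more of 12 microglia markers, so they are an imperfect guide. The neighbour of Crybb1, Cryba4 (chr5:112246493-112252518, - strand), a second crystallin gene, was at 92.5 CPM in members, 33.2 CPM in the opposing state and 65.8 CPM in WT.

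Cck, which encodes the neuropeptide cholecystokinin, was the second highest at that level and differed from Crybb1 in being nearly absent from WT. It had 390 UMIs in members (71.1 CPM), 18 in the opposing state (9.05 CPM) and 3 in WT, a log2 ratio of 2.97 (2.29 to 3.74) over the opposing state and 7.51 (5.96 to 9.80) over WT. Only 195 members carried a Cck UMI, and 50 of them held 54.6% of the UMIs. Thrsp, a regulator of lipid synthesis, followed at 68.9 CPM against 15.1 CPM, a log2 ratio of 2.19, and stood at 92.1 CPM in WT.

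The other 9 of the 12 highest genes at 50 CPM or more were Pmp22, Ecscr, Plxdc2, Phgdh, Cryba4, Sparc, Fscn1, Nav3 and Hnrnph3, with log2 ratios from 1.25 to 1.91. Sparc, a secreted matrix-binding protein, was at 995 CPM in members, 363 CPM in the opposing state and 3224 CPM in WT, so members lay between. The same order held for Pmp22 (107, 28.7 and 342 CPM), Ecscr (80.8, 23.1 and 326 CPM) and Plxdc2 (87.0, 29.7 and 937 CPM). Phgdh, the first enzyme of serine synthesis, was at 83.7 CPM in members and 88.8 CPM in WT, with a log2 ratio of -0.08 whose interval (-0.26 to 0.09) spans 0. Fscn1, which bundles actin, was at 297, 113 and 488 CPM, and Nav3 at 411, 168 and 367 CPM. Hnrnph3 was within 2-fold when cells were thinned before the rule (0.92) or weighted by depth (0.96).

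Among genes with at least 50 CPM in 1 class, the 12 lowest against the opposing state were Emp1, Ifitm1, Fam189a2, Cxcl10, Lsp1, Thbs1, Fcgr4, Ccl12, Cd300ld, Rapsn, Gsn and Lyz2. Emp1, an epithelial membrane protein (chr6:135362545-135383173, + strand), had 24 UMIs in members and 111 in the opposing state, a log2 ratio of -3.67 (-4.37 to -3.03). Ifitm1, an interferon-induced membrane protein, had 26 UMIs against 101, with none in WT. Lyz2, the macrophage lysozyme, stood at 302 CPM in members, 943 CPM in the opposing state and 225 CPM in WT, so members were close to WT. Ccl12, a monocyte-attracting chemokine, was at 68.4 CPM in members and 69.8 CPM in WT against 243 CPM in the opposing state, and Fcgr4, a receptor for immunoglobulin G, at 16.2 CPM in members and 61.4 CPM in the opposing state. Thbs1, the matrix protein thrombospondin 1, and Gsn, an actin-severing protein, were still above WT in members, by log2 ratios of 2.29 and 3.45, though lower than in the opposing state by -2.06 and -1.69. Few cells carried some of these values: Cxcl10, a chemokine induced by interferon, had its 60 UMIs in 9 members, and its ratio of -2.79 became -1.43 with a score of at least 3 on both sides. Copies such as Ccl12, Fcgr4, Cd300ld, Ifitm1 and Lyz2 have close relatives in the genome, and their counts are uncertain where reads could be split.

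**Figure D2:**
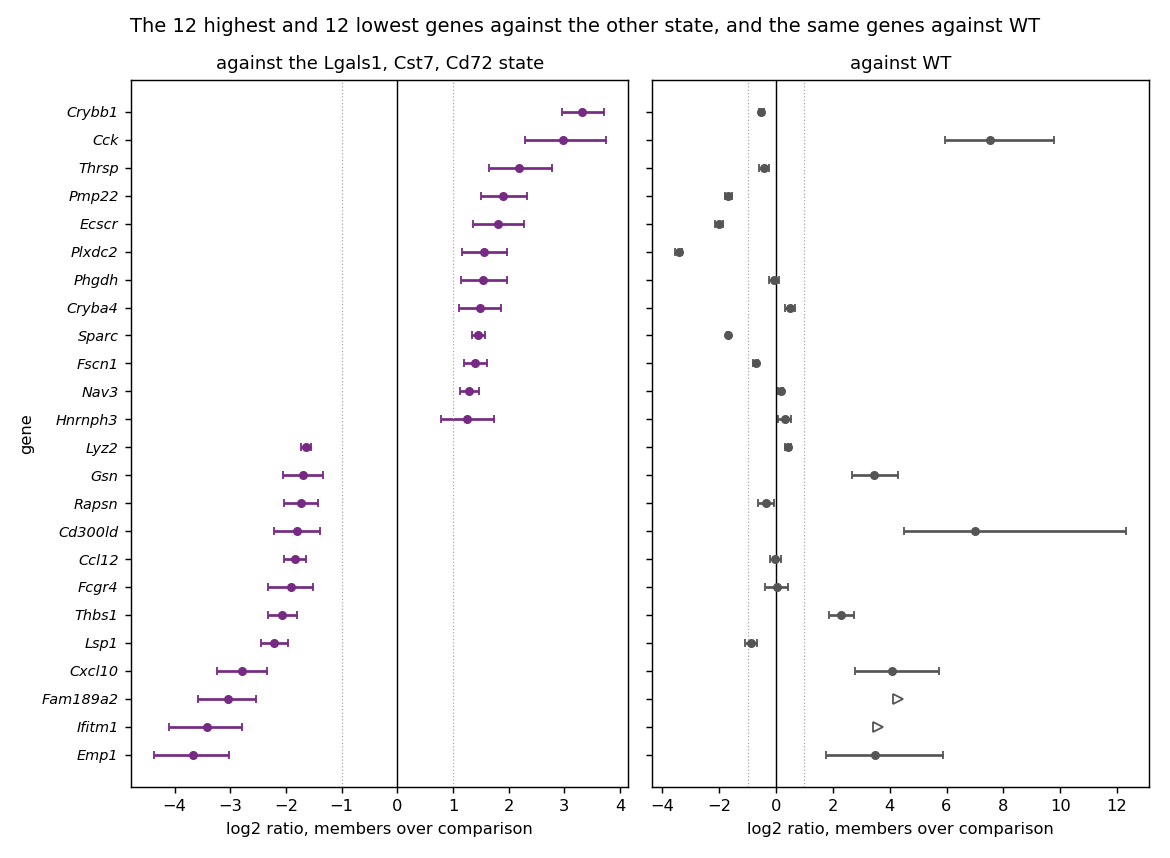
Log2 ratio of pooled CPM, members over the Lgals1, Cst7, Cd72 state (left) and over WT (right), for the 12 highest and 12 lowest genes against that state with at least 50 CPM in 1 class. Bars are 95% counting intervals, open triangles are lower bounds against a WT count of 0, and dotted lines mark 2-fold. Crybb1 reads 3.32 on the left and -0.52 on the right, and Plxdc2 1.55 and -3.43.

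Several of these genes changed by steps along the score, and others did not change with it. P2ry12, the purinergic receptor of resting microglia, stood at 300 CPM at scores of -4 or less, 348 CPM at -3 to -2, 543 CPM at -1 to 1, 748 CPM at 2 to 3 and 921 CPM at 4 or more, against 3670 CPM in WT. Crybb1 went from 21.4 to 371 CPM over the same 5 bins. Maf, a macrophage transcription factor, went from 575 to 1377 CPM, passing the WT level of 1231 CPM in the highest bin. Ms4a7 went the other way, from 905 and 971 CPM in the lower bins to 303 CPM in the highest, and Fth1, the ferritin heavy chain, from 10249 to 4543 CPM. Apoe stayed between 85154 and 89601 CPM in all 5 bins. Irf8 stayed between 614 and 652 CPM. Tmem119, a microglia surface protein, went slightly against the other microglia genes, at 844 and 933 CPM in the lower bins and 756 CPM in the highest. Median depth was higher in the opposing state than in members, as given above, and its part in these steps was not tested.

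**Figure D3:**
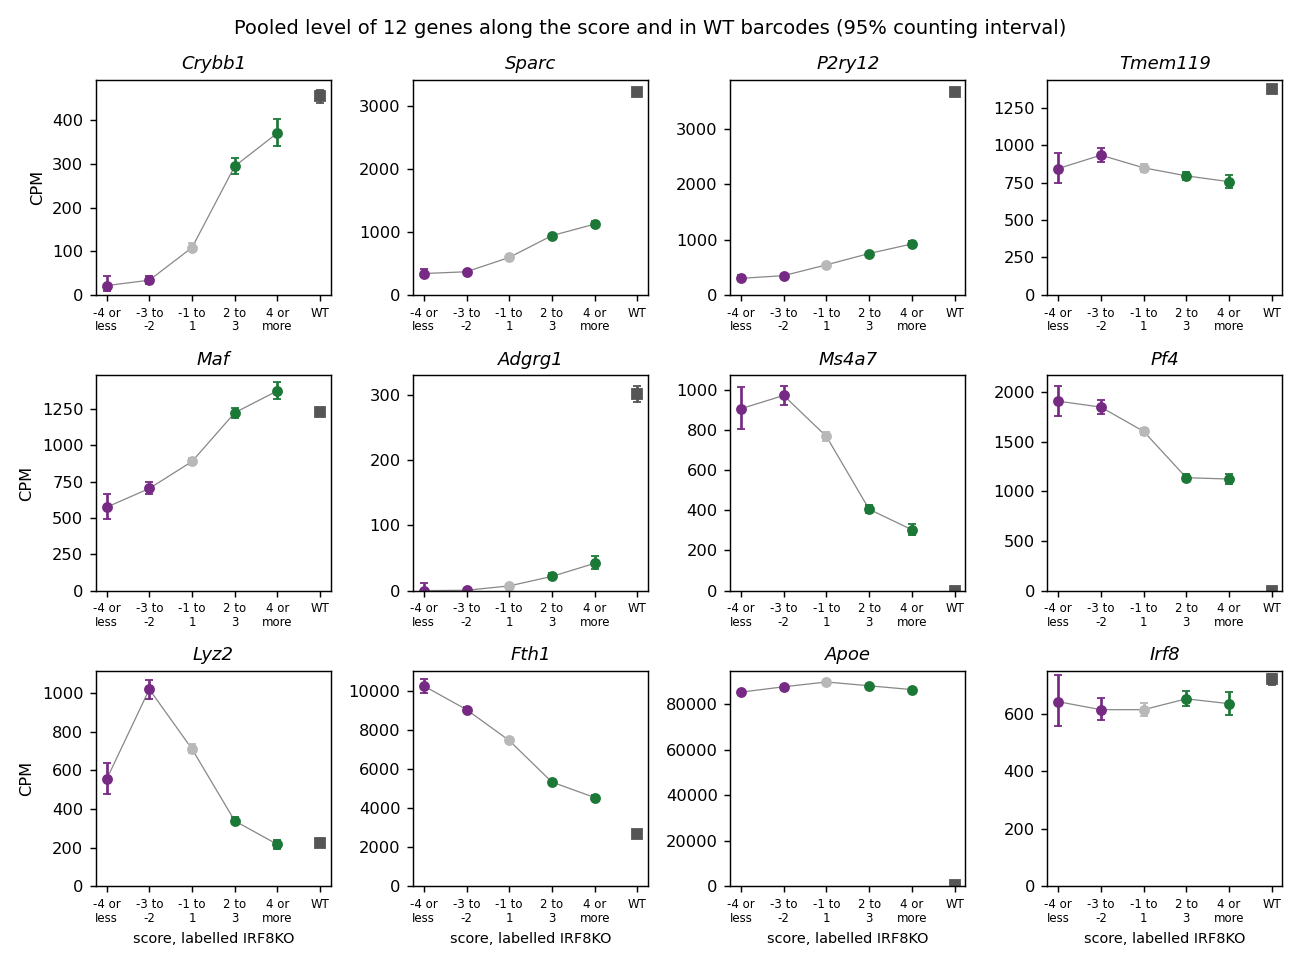
Pooled level (CPM, y axes from 0) of 12 genes in 5 bins of the score in the library labelled IRF8KO (purple, the opposing state; light grey, between; green, members) and in WT (dark square), with 95% counting intervals. P2ry12 climbs from 300 to 921 CPM and stays below the WT level of 3670 CPM, while Apoe lies between 85154 and 89601 CPM in every bin.

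Against WT cells of the same depth range, members were far apart in a limited number of genes. Of 8779 genes with at least 10 CPM in 1 group, 419 (4.77%) were higher by 2-fold or more and 773 (8.81%) lower, and the median log2 ratio was -0.25. Scaling changed this balance. TMM scaling raised all values by 0.22 and gave 575 higher and 536 lower, a higher share of 51.8% against 35.2%. Totals without mitochondrial genes, ribosomal protein genes and Apoe raised them by 0.29 and gave 667 and 502 (57.1%). For this reason some list medians are also given after subtracting the all-gene median.

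The 12 highest genes against WT with at least 50 CPM in 1 group were Apoc1, Pf4, Ccnd2, Apoc4, Ms4a7, Clec4n, Cxcl14, Ch25h, Gdf3, Aoah, Mndal and Apoe. Apoc1 had 25368 UMIs in members and 4 in WT, a log2 ratio of 13.12 (11.77 to 15.00). Its neighbours on chromosome 7, Apoe and Apoc4, which with it encode lipid-carrying apolipoproteins, stood at 87438 CPM against 437 CPM (log2 ratio 7.64) and at 2148 UMIs against 3 (9.97). Within the library, Apoc1 was higher in members than in the opposing state, at 4626 and 2925 CPM, whereas Apoe was at 87438 and 87101 CPM. Pf4, Ccnd2, Apoc4, Ms4a7, Clec4n, Cxcl14 and Mndal were lower in members than in that state, with Ccnd2 at 176 and 261 CPM. For Ch25h, Gdf3 and Aoah the interval of that ratio spanned 0, so most of these genes were not particular to members. After thinning, Apoc1 was in 90.7% of members and 13.4% of neutrophil-like barcodes, and Apoe in 100% and 68.0%, so some of the Apoe UMIs in any barcode can be free RNA. The median share of Apoe before thinning was 8.34% of UMIs in members and 0.048% in neutrophil-like barcodes. In 12.4% of neutrophil-like barcodes the thinned share of apolipoprotein and cholesterol genes was above the WT 95th percentile. How far the 13.4% with Apoc1 is background was not tested. Pf4, platelet factor 4 (chr5:90772435-90773383, + strand), had 6213 UMIs against 1, a ratio of 13.09 (10.61 to 18.40). Ms4a7, a membrane protein of macrophages, had 2054 UMIs and none in WT, at least 962-fold higher. Gdf3, a ligand of the transforming growth factor family, was at least 281-fold higher and Mndal at least 217-fold. Ccnd2 (cyclin D2), Clec4n (the lectin receptor dectin-2), Cxcl14 (a chemokine), Ch25h (which makes the 25-hydroxy form of cholesterol) and Aoah (which inactivates endotoxin) had 527 to 966 UMIs in members and 1 to 3 in WT, with log2 ratios from 8.02 for Aoah (6.47 to 10.30) to 10.41 for Ccnd2 (7.93 to 15.71). Floors here are 3 counts over the group.

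The 12 lowest at the same level included Sall1 and genes at or near 0 in members. Sall1, a transcription factor that keeps microglial identity (chr8:89027235-89044162, - strand), stood at 3.28 CPM in members and 457 CPM in WT, a log2 ratio of -7.12 (-7.88 to -6.46). Its 18 UMIs lay in 12 members, and after thinning 0.5% of members and 59.0% of WT barcodes had a Sall1 UMI. The receptor genes Adora3 (adenosine, 1.09 and 158 CPM) and Il7r (interleukin 7, no UMI against 612) went with it. Dlgap1, a synaptic scaffold protein, had no UMI in members and 1252 in WT, at least 297-fold lower, and the serine protease gene Klk8 was at least 217.5-fold and the protease inhibitor Spint1 at least 212-fold lower. Upk1b, Gimap1, Slamf6, Rtn1 and the transcript A830008E24Rik completed the set together with Ttr, but 542 of the 544 WT UMIs of Ttr lay in 1 cell. None of Dlgap1, Klk8, Spint1, Il7r, Upk1b and Gimap1 had a UMI in the opposing state either.

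Homeostatic microglia genes were lower in members than in WT and higher than in the opposing state. Against WT, all 30 of the list passed the 10 CPM filter, 13 were lower by 2-fold or more (43.3%, where 8.81% of all genes were) and 2 higher, with a median log2 ratio of -0.80, or -0.55 relative to all genes. Some of the 13, Sall1 and Upk1b among them, passed only through their level in WT and could not be counted as higher. Against the opposing state 28 passed, 6 were higher (21.4%, where 1.47% of all genes were) and none lower, with a median of 0.49. The list as a whole made up 5.30% of UMIs in members, 10.1% in WT and 3.24% in the opposing state. In thinned cells its median share was 5.20% (5th to 95th percentile 3.05 to 8.10) in members and 9.95% (7.19 to 13.4) in WT, and 87.4% of members lay below the WT 5th percentile. Adgrg1, an adhesion receptor of microglia (GPR56), stood at 301 CPM in WT, 27.7 CPM in members and 1 UMI in the opposing state, a log2 ratio of 5.78 (3.28 to 11.10) between the latter. Against the opposing state, Adgrg1 passed the filter only through members. Slc2a5, a fructose transporter, was at 375, 44.7 and 18.6 CPM. Not every homeostatic gene was lower than in WT: Gpr84, a receptor for medium-chain fatty acids, was at 270 against 83.7 CPM and the transcription factor Bhlhe41 at 580 against 211 CPM, and Fcrls was at 2290 CPM in members, 1787 CPM in WT and 1377 CPM in the opposing state.

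Genes of border macrophages outside the rule made up 0.516% of UMIs in members, 0.197% in WT and 0.564% in the opposing state. Of 22 listed, 12 passed the filter against WT, and 10 of those were higher by 2-fold or more (4.77% of all genes were) and none lower. Several of the 10, among them Pf4, Ms4a7 and Colec12, passed only through their level in members and so had to be higher. Against the opposing state, 2 of 12 were higher and 1 lower, with a median of -0.01. Dab2, an endocytic adaptor, stood at 558 CPM in members and 24.8 CPM in WT, and at 544 CPM in the opposing state. Colec12, a scavenger receptor, had 292 UMIs and none in WT. The genes that set members apart from the opposing state pointed both ways. Cd38, an enzyme that consumes NAD, had 126 UMIs in members and 1 in the opposing state, and Ccl24, a chemokine, was at 32.1 and 13.1 CPM, whereas Ms4a7 was at 375 and 960 CPM (log2 ratio -1.36) and Pf4 at 1133 and 1858 CPM (-0.71). The excess of Ccl24 was within 2-fold after weighting by depth (0.98), and Cd38 passed the filter only through members. The markers Lyve1, Folr2 and Clec10a had no UMI in members, Cd163 was at 7.66 CPM, and Mrc1, which names the state, was part of the rule.

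**Figure D4:**
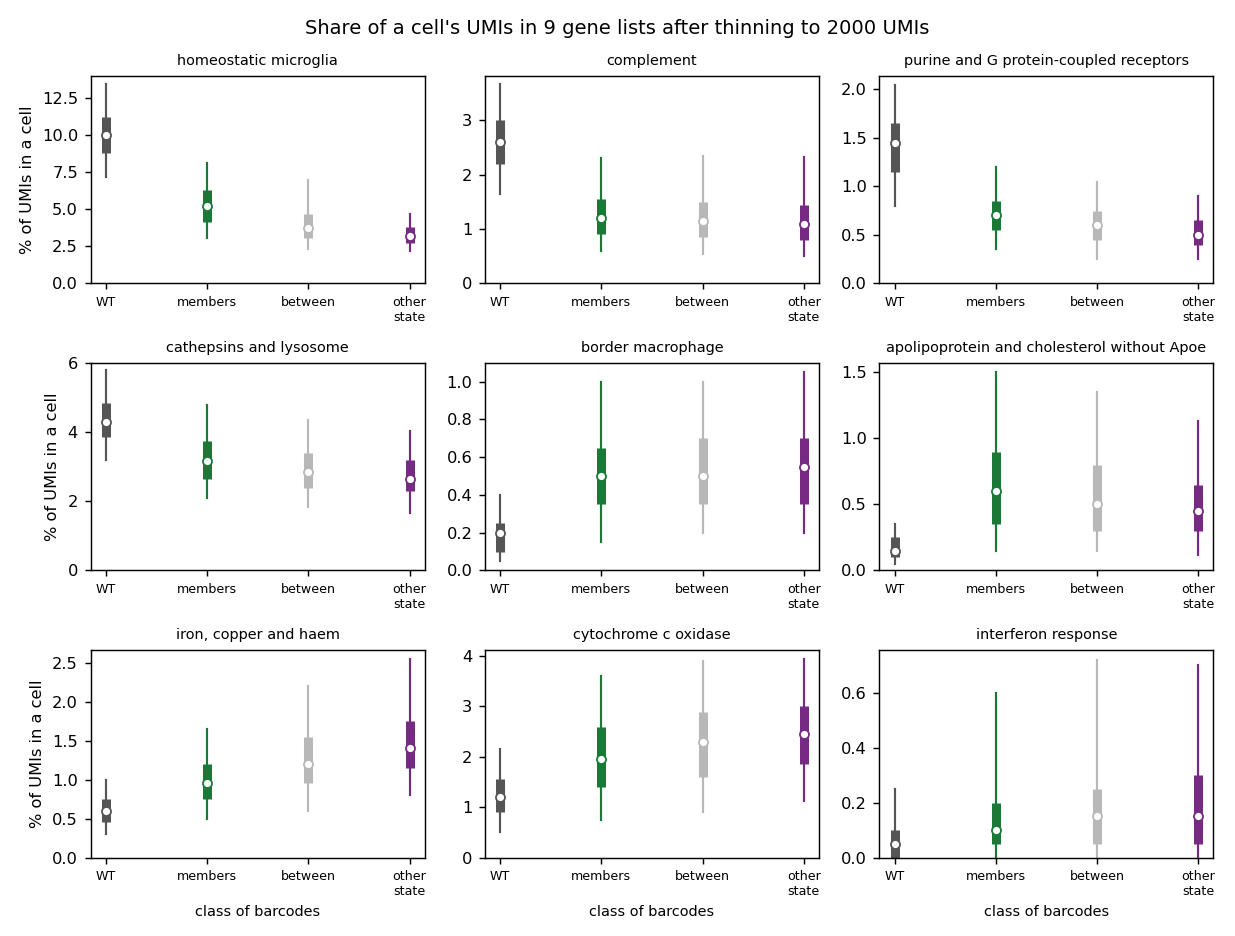
Share of a cell's UMIs (%, y axes from 0) in 9 gene lists after thinning to 2000 UMIs, for WT, members, the cells between and the opposing state. Circles are medians, thick bars the middle 50% of cells and thin bars the 5th to 95th percentiles; the homeostatic list has medians of 9.95% in WT and 5.20% in members.

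Genes of activated or disease-associated microglia gave a mixed picture. Without Apoe, their share of a thinned cell was 2.60% in members, 2.05% in WT and 2.80% in the opposing state. Against WT, 19 of 25 passed, 4 were higher and 3 lower, among them Ch25h, Cd63 (984 and 350 CPM) and Ank higher and Ccl6 lower (14.2 and 158 CPM). Ch25h passed only through its level in members. Against the opposing state, 22 passed, none was higher and 5 were lower (22.7%, where 1.77% of all genes were). These were Lyz2, Cd52, a small surface glycoprotein (122 and 364 CPM), and 3 genes of phagocytic activation near the detection limit in members: Axl (15 UMIs in members), Itgax (20) and Gpnmb (11). Those 3 passed the filter only through the opposing state and could not be counted as higher, which limits the contrast with all genes. Fth1 was at 5097 CPM in members, 9237 CPM in the opposing state and 2653 CPM in WT, and Slc40a1, the iron exporter ferroportin, at 219, 102 and 176 CPM. With opposing cells weighted by depth the Slc40a1 ratio of 1.11 became 0.99.

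Some chemokine, interferon and cytoskeletal genes were lower in members than in the opposing state, and most of the interferon and cytoskeletal genes were within 2-fold. Where 1.77% of all genes were lower, 6 of 13 chemokines were (46.2%), with 1, Ccl24, higher and a median of -0.95, and 50 members held 38.4% of all their chemokine UMIs. The chemokines Ccl3 and Ccl4 were at 32.8 and 46.1 CPM against 80.5 and 135 CPM. The interferon list had 28 of 30 genes past the filter in each comparison. Against the opposing state, 4 were lower (14.3%), none was higher, and 25 ratios lay below 0, with a median of -0.60. Against WT, 19 were higher (67.9%, where 4.77% of all genes were) and 1, Phf11d, lower, and some of these passed only through members. The list made up 0.187% of UMIs in members, 0.0728% in WT and 0.256% in the opposing state. Of its UMIs in members, 22.9% lay in 50 cells. After thinning, 17.0% of members and 25.5% of the opposing state were above the WT 95th percentile for the list. Ifi207, of the interferon-induced Ifi200 family, was at 106 CPM in members, 179 CPM in the opposing state and 1.56 CPM in WT. Rsad2, an antiviral enzyme also known as viperin, was at 15.9, 37.7 and 0.13 CPM, and its ratio of -1.25 against the opposing state became -0.23 with thinning before the rule. Mndal, Ifi207 and Ifi204 belong to a family of near copies, and their counts are uncertain for that reason. The cytoskeletal list (S100 proteins, annexins and actin partners) had 5 of 17 genes lower than in the opposing state (29.4%) and none higher, with Vim, which encodes the intermediate filament vimentin, at 9.12 and 41.8 CPM. Inflammatory cytokines had 3 of 11 lower, among them Il1b, with 48 UMIs in members and 97 in the opposing state, at 8.75 and 48.8 CPM. Some of the genes counted as lower here, Vim and Il1b among them, passed the filter only through the opposing state and could not be counted as higher.

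**Figure D5:**
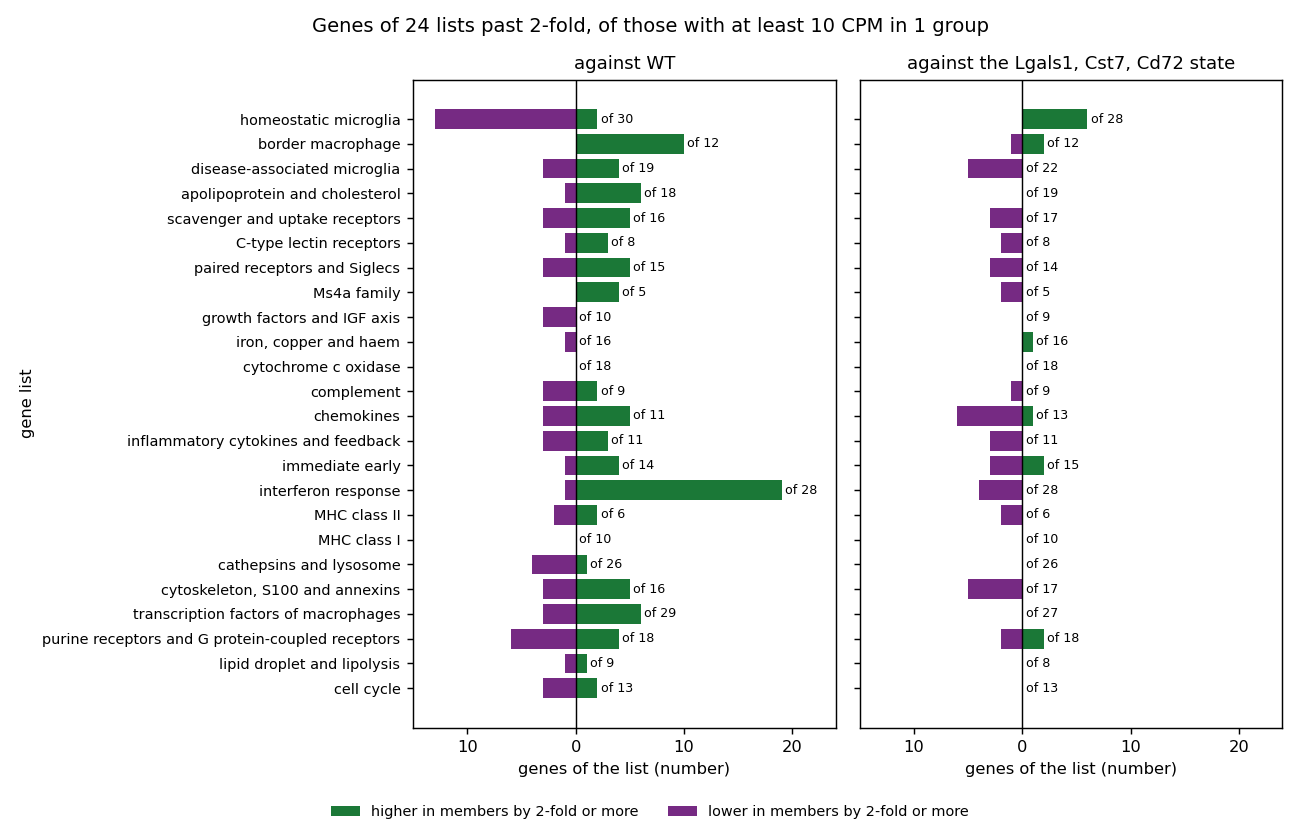
Number of genes of each of 24 lists that were higher (green, to the right) or lower (purple, to the left) in members by 2-fold or more, against WT (left panel) and against the Lgals1, Cst7, Cd72 state (right panel), with the number that had at least 10 CPM in 1 group beside each bar. The homeostatic list has 13 lower and 2 higher of 30 against WT, and 6 higher of 28 against the other state.

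Promoters of the genes that stood apart were searched for the elements that IRF proteins bind, because interferon genes differed in both comparisons and the library is labelled for the loss of an IRF. The window ran from 250 bases before to 50 after each RefSeq gene start (GRCm38.p6), and both strands were read. The interferon-stimulated response element was searched as GAAA and GAAA with any 2 bases between them, the composite ETS-IRF site as GGAA and GAAA with any 2 bases between them and the core of the PU.1 site as GAGGAAGT, and the first 2 motifs can overlap. The response element was in 3.99% of the 27025 genes of the table. It was in 3 of 8 matched genes among the 12 highest against WT (Cxcl14, Aoah and Mndal), in 0 of 9 among the 12 lowest, in 14 of 23 interferon-list genes (60.9%), and in 0 of 21 homeostatic and 0 of 7 list B genes. Among the 12 lowest against the opposing state it was in 2 of 9, Cxcl10 and Fcgr4. The composite site was in 3.16% of all genes, in 4 of 23 interferon-list genes (17.4%, Stat2, Ifi44, Phf11d and Slfn2) and in Emp1 among the 12 lowest against the opposing state. It was in none of the 8, 9 and 7 matched genes named against WT and of list B. The PU.1 core was in 3.69% of all genes. Of the matched genes it was in 1 of 8 highest against WT (Pf4), 2 of 9 lowest (Adora3 and Gimap1) and 2 of 9 lowest against the opposing state (Fcgr4 and Cd300ld). Of 5 matched list A genes, Pilrb2 had the response element and Cd72 the PU.1 core. The 250 bases upstream of 3 of these starts are shown, since they are the carriers of the element with the largest differences from WT or from the opposing state that hold it before the start. Capitals mark the match. Mndal is at chr1:173880188-173880437 (- strand), with the match starting 36 bases before the RefSeq start used, Cxcl14 at chr13:56296552-56296801 (- strand), 172 bases before, and Cxcl10 at chr5:92348890-92349139 (- strand), 213 bases before. Another RefSeq start of Mndal (upstream bases chr1:173879959-173880208), not shown, had a match 54 bases before it. The annotated span of Mndal, chr1:173849126-173942491, reaches upstream of both starts.
Mndal: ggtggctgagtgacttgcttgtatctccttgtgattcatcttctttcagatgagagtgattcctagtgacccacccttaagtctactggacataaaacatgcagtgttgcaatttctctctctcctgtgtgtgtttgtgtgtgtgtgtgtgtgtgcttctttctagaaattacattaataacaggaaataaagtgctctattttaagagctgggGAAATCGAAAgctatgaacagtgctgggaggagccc
Cxcl14: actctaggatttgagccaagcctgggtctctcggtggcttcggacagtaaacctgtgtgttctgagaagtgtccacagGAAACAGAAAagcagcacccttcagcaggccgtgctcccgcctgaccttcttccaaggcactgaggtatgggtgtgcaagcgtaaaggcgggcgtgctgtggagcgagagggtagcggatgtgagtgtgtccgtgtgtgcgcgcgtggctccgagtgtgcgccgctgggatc
Cxcl10: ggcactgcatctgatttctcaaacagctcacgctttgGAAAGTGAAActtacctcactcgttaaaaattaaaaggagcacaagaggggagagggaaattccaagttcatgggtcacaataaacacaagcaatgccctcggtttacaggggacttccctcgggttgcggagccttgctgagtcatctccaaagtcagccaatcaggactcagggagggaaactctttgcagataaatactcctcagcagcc
Beside these sequences, Mndal stood at 84.6 CPM in members and 108 CPM in the opposing state with no UMI in WT, Cxcl14 at 118, 229 and 0.26 CPM, and Cxcl10 at 10.9, 75.5 and 0.65 CPM. In Aoah, Gimap1 and Emp1 the match lay after the start. A match is a string of letters and not a measured binding site.

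The counts of the remaining lists against WT are to be read against 8.81% of all genes lower and 4.77% higher. Complement genes had 3 of 9 lower than in WT (33.3%), with C1qb at 2649 and 8096 CPM, and 2 higher, C3 and Cfp, which stood at 35.4 and 11.3 CPM against 0.39 and 1.17 CPM. Purine and other G protein-coupled receptors had 6 of 18 lower (33.3%) and 4 higher (22.2%) than in WT, with the ATP-gated channel P2rx4, among the higher, at 300 against 116 CPM. Cathepsin and lysosome genes had 4 of 26 lower (15.4%), with Ctsh (cathepsin H) at 28.8 and 885 CPM, and 1 higher, Cd63; none passed 2-fold against the opposing state. Transcription factors had 6 of 29 higher than in WT (20.7%) and 3 lower (10.3%, near the share of all genes): Bhlhe40 (56.2 and 0.52 CPM), Runx2 (56.7 and 0.78 CPM) and Tfec were among the higher, and Sall1, Batf3 and Irf5 the lower. Maf was at 1270.5 CPM in members, 683 CPM in the opposing state and 1231 CPM in WT. Of the Ms4a family, 4 of 5 were higher than in WT. Some genes counted as higher in these lists passed the filter only through members and could not be counted as lower. Ms4a7, C3, Cfp, Bhlhe40 and Runx2 were among them. Likewise some counted as lower, Adora3 and Sall1 among them, passed only through WT and could not be counted as higher. Cytochrome c oxidase genes had 0 of 18 past 2-fold in both comparisons, although Cox6a2 of the rule belongs to that enzyme, and the IGF axis outside Igf1 had 0 of 10 higher and 3 lower than in WT, among them its receptor Igf1r (18.4 and 50.5 CPM). MHC class I genes had 0 of 10 past 2-fold in both comparisons. MHC class II values rested on a few cells: 50 members held 61.0% of the UMIs, and H2-Aa and H2-Eb1, higher than in WT by 2.66 and 2.60, had their UMIs in 7 and 4 members and were below WT with a score of at least 3 (-0.80 and -1.80).

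Markers of microglia and of other cells were summed in each class. Of 12 microglia markers, 11 had at least 10 CPM in members, all but Sall1, and they summed to 19654 CPM against 33183 CPM in WT and 14058 CPM in the opposing state. Monocyte markers summed to 216 CPM in members, 12.7 CPM in WT and 222 CPM in the opposing state. Of the 12, only Itga4, an integrin subunit, reached 10 CPM in members, at 208 CPM against 4.54 CPM in WT, and those at 0 included Ly6c2, Plac8, F10 and Spn. Dendritic cell markers summed to 1385 CPM in members and 2357 CPM in WT, of which Siglech and Fscn1, also transcribed in microglia, were 1074 and 297 CPM in members. Of 12 neutrophil markers, 3 reached 10 CPM, with S100a8 at 16.8 CPM in members and 14.6 CPM in the opposing state, after the rule had removed barcodes rich in such genes. T and NK cell markers were at 0 in 10 of 11, mast cell markers in 7 of 7, pericyte and smooth muscle markers in 6 of 6 and haemoglobin genes in all 4 listed. Border macrophage markers summed to 2094 CPM in members, 231 CPM in WT and 3281 CPM in the opposing state, with 4 of 11 at 10 CPM or more, and the part of monocyte and border macrophage markers in the differences from WT was not tested. Among WT barcodes, 3 held over 50% haemoglobin UMIs, and without them 1189 genes passed 2-fold against WT in place of 1192.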

How the data were processed

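Microglia of 2 libraries, 1 labelled WT and 1 labelled IRF8KO, were measured. The deposited values are UMI counts per gene and barcode, not normalized, per the file headers. The submitters' processing notes name bcl2fastq, Cell Ranger 3.1, Scanpy and mm10, with no role or order. For annotation and aligner settings, nothing was given in the sources used. The labels' protocols also name a low-input SMART-Seq kit, although the matrices look like those of a droplet platform.

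Counts were summed per class and set as CPM, with exact Poisson intervals, and ratios have exact conditional binomial intervals (numpy 2.4.6, scipy 1.17.1, pandas 2.3.3). Genes with at least 10 CPM in 1 group counted as past the threshold at 2-fold; the 16 rule genes were left out. A count of 0 was set to a floor of 3 counts over the group. TMM factors came from edgeR 4.0.16, applied to the counts with no edgeR test. Cells were thinned to 2000 UMIs for shares of cells. Doublets were scored with scrublet in scanpy 1.11.5, which marked 0 WT barcodes and 1 other, too few to work, so none was removed. The steps were tested on simulated data. Named genes were, in each comparison, the 12 highest and 12 lowest with at least 50 CPM in 1 group (rule, mitochondrial, ribosomal protein and haemoglobin genes left out), the 3 largest of each list with at least 10 CPM, the rule genes, and Irf8, Sall1 and Apoe; others given were chosen after their values were seen. The members, the lists and the rule were chosen with earlier results of these data known. Alternatives covered the score, depth, scaling, CPM minimum, pseudocount and doublets.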

Additional observations from a re-analysis of the deposited data

Results flagged for a closer look

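Barcodes outside the depth limits of the rule also carried the Clec12a, Mrc1, Igf1 score, in data the comparisons did not use. The score counts the rule's own genes in the same 2 libraries. Within the depth limits, list B summed to 28.4 CPM in WT and 2393 CPM in members. The contrast with WT below is therefore a description and not a separate check of the state. Among barcodes of the library labelled IRF8KO with over 6000 UMIs, thinned to the members' range, 176 of 513 scored 2 or more. That was 34.3% (exact binomial interval 30.2 to 38.6), against 0 of 668 in WT, where the same interval reaches 0.551%. Without thinning the shares were 32.7% and 4.34%. Among barcodes with at least 1000 and under 2000 UMIs, 267 of 503 scored 2 or more, or 53.1% (48.6 to 57.5). In WT it was 0 of 285, where the interval reaches 1.29%.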

How the results depend on the processing

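No paired analysis was possible because each group was 1 library. The share of members was 27.8% with a score of at least 3, 61.7% with at least 1, 40.9% with thinning before the rule and 47.1% within 2000 to 4000 UMIs. Genes past 2-fold against WT numbered 529 with a minimum of 50 CPM and 4659 with none, and 1111 to 1224 under the other alternatives. Against the opposing state they numbered 526 with a score of at least 3, 411 with thinning before the rule, 64 with 50 CPM and 3109 with no minimum (602 higher and 2507 lower), and 231 to 348 otherwise. Of the named genes past 2-fold against WT, H2-Aa (-0.80 with a score of at least 3, -0.74 with thinning) and H2-Eb1 (-1.80 and -1.64) changed sign. Under the same alternatives Cd74 went from 0.68 to -1.27 and -0.92, and H2-Ab1 from 0.05 to -1.42 and -1.89; the cause was not tested. Depth limits what can be seen: 3 counts correspond to 0.547 CPM in members, 0.389 CPM in WT and 1.51 CPM in the opposing state. With 1 library per group, library and genotype cannot be told apart.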
